A study of Arabidopsis thaliana with 20 samples.

Results

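The small auxin up RNA (SAUR) genes of Arabidopsis thaliana were taken from the RefSeq annotation of TAIR10.1 as the nuclear protein-coding genes whose product text holds the word SAUR. The rule used no measured value and found 78 genes among 27443 nuclear protein-coding genes. They lie on all chromosomes, with 20 genes on chromosome 1, 11 on chromosome 2, 14 on chromosome 3, 18 on chromosome 4 and 15 on chromosome 5. They are short genes, with a median length of 812.5 bp (396 to 2588 bp) against 2078 bp for all genes. Their median coding length was 363 bp, against 1047 bp for all genes. An intron is rare among them, since 72 of the 78 genes (92.3%) have a single exon, against 20.4% of all genes. Tandem clusters, with at most 10 kb between neighbours, numbered 9 and held 37 SAUR genes, while 41 stood alone.

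SAUR genes are the largest family of early auxin-responsive genes in plants and were named for small transcripts that accumulate soon after auxin is applied. Auxin bound by a TIR1/AFB receptor leads to the breakdown of Aux/IAA repressors, which frees ARF transcription factors to act on promoters such as those of SAUR genes. Many SAUR proteins inhibit PP2C.D phosphatases, which keeps plasma membrane proton pumps (AHA) active and promotes cell expansion. Brassinosteroids, light and temperature also regulate many SAUR genes, and their transcripts are short-lived.

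Histones were mapped by chromatin immunoprecipitation and sequencing (ChIP-seq) in whole seedlings at 10 days, in h3.3kd plants and in WT plants of the Col-0 accession. The h3.3kd plants are deficient in the histone variant H3.3: they carry T-DNA insertions in HTR4 and HTR8 and an artificial microRNA against HTR5 that is driven by the HTR5 promoter. Which h3.3kd line served for ChIP-seq is not named in the sources used here. Antibodies against H3, H3K4me3 and H3K36me3, against the histone variant H2A.Z and against the linker histone H1 were each used on 2 replicates of a genotype, which gave 20 libraries. H3K4me3 marks the start of transcribed genes, H3K36me3 marks transcribed gene bodies, and in plants H2A.Z occupies the first nucleosomes of most genes and the whole body of many inducible genes. H1 binds the linker DNA between nucleosomes. In whole seedlings, fewer cells that carry a mark and less of a mark per cell cannot be told apart.

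The libraries held 8688846 to 68090065 reads. Over genes and single libraries, a SAUR gene body had a median of 103.5 H3 reads (33 to 397) and of 421.5 H2A.Z reads (91 to 2003). In HTR4 and HTR8, the longest stretch with 0 reads in the h3.3kd libraries and reads in every WT library was sought. It spanned 46 positions in HTR4, with 238 WT reads, and 95 positions in HTR8, with 499. The 0 follows from this choice, and mapped insertion sites were not compared, so that the stretches do not check the insertions. HTR5 is targeted at its RNA, so that reads of DNA do not check it. For H3K4me3 and H2A.Z, the deposited lists of replicate 2 lack, in h3.3kd as in WT, strands and organelle reads and allow 2 reads at a position, where the others allow 1. Replicate 2 of H3 in WT stood apart in shape: over SAUR genes, log2 of H3 reads per base in the 500 bp upstream over those in the gene body was −0.40 and −0.76 in h3.3kd replicates 1 and 2, and −0.51 and −0.20 in WT replicates 1 and 2. Over all genes the same measure was −0.56 and −0.87 in h3.3kd and −0.60 and −0.08 in WT. Values are therefore given for each replicate. Nothing in the labels says that replicates came from separate cultures, so p-values measure the spread between these libraries, which may be technical.

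Some SAUR genes resemble each other or other genes so closely that part of their sequence could not be seen in these data. Only reads that map to 1 place were kept. Of 139402 positions where a read of 50 bp could lie in SAUR genes and their 500-bp flanks, 1886 (1.35%) had an exact copy elsewhere in the genome and these held 0 reads in the 20 libraries. Another 4213 positions (3.02%) had a near copy, with up to 2 mismatches, and held 22485 reads, and 133303 positions (95.6%) had no copy and held 632804 reads. The unseen positions were gathered in few genes. AT1G29510 could be seen at 65.1% of its positions, SAUR75 at 72.2%, SAUR63 at 75.1%, SAUR62 at 78.2% and SAUR19 at 82.9%, while 63 of the 78 genes could be seen at every position of the body.

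The SAUR19 to SAUR24 cluster, whose proteins promote hypocotyl cell expansion, is shown at a stretch chosen for its copies. It is the longest coding stretch of SAUR19 at which every read position had an exact copy elsewhere. The 0 reads of SAUR19 and the likeness of its closest copies follow from this choice. Over the gene body, SAUR19 could be seen at 82.9% of positions and the others at 93.45% to 99.46%. The lines below give this stretch of 96 bases in the 6 coding sequences, with capitals at bases that differ from SAUR19. They were read from the TAIR10.1 genome (RefSeq) 5′ to 3′ on the strand of each gene. The stretch was placed by its distance from the stop codon or, for SAUR20, from the start codon. The end that gave fewer differences from SAUR19 was used.
SAUR19: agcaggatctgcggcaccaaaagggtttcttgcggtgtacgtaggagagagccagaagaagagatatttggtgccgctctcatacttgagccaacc
SAUR20: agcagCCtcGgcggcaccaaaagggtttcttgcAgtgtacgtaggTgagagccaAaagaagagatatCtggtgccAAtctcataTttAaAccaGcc
SAUR21: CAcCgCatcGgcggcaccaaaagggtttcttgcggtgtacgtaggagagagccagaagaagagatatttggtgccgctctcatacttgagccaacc
SAUR22: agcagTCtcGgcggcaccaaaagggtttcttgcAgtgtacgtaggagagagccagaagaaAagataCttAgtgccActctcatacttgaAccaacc
SAUR23: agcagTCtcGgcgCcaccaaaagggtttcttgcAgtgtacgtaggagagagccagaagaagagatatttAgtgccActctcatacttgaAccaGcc
SAUR24: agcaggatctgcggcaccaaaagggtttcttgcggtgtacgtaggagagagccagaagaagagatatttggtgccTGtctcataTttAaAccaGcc
These stretches lie within the only exon of each gene, at chr5:5963154-5963249 (minus strand) for SAUR19, chr5:5966429-5966524 (minus) for SAUR20, chr5:5968577-5968672 (plus) for SAUR21, chr5:5974812-5974907 (minus) for SAUR22, chr5:5976086-5976181 (plus) for SAUR23 and chr5:5983896-5983991 (plus) for SAUR24. SAUR20 differed from SAUR19 at 13 bases, SAUR22 and SAUR23 at 9 each, SAUR24 at 6 and SAUR21 at 5. Reads of the stretch followed these differences. Of 47 read positions, 47 were free of an exact copy in SAUR20, SAUR22 and SAUR23, which had 392, 310 and 435 reads over the 20 libraries. SAUR24 had 21 such positions and 155 reads, SAUR21 had 10 and 97 reads, and SAUR19 had 0 and 0 reads. The longest identical coding stretch joined genes on different chromosomes, SAUR62 (chr1:10302947-10303108, minus strand) and SAUR75 (chr5:9839031-9839192, minus strand). It is shown because its 162 bases had 0 reads in either gene.
SAUR62 and SAUR75: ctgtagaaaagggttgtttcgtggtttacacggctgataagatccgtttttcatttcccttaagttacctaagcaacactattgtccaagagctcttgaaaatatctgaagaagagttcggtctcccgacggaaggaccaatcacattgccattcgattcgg
Values of these genes rest on the rest of their length, and reads at near copies may be misplaced between members.

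**Figure D1:**
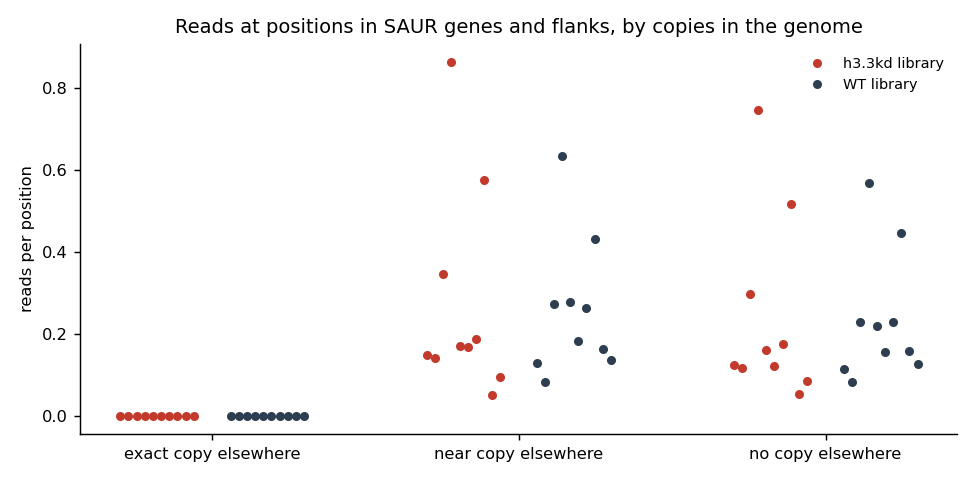
Reads per position (vertical axis) in SAUR genes and 500-bp flanks for positions with an exact copy, a near copy or no copy elsewhere in the genome, with a point for each h3.3kd and WT library. The 1886 positions with an exact copy held 0 reads in every library, while near copies and positions without a copy held reads in every library.

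Promoters of SAUR genes were read for the elements known from auxin and light responses, in the 250 bases before the annotated start and on both strands. TGTCTC, the element through which ARF proteins were first found to bind (GAGACA on the other strand), stood before 7 of 78 SAUR genes (8.97%), against 10.9% of all genes. TGTCGG, a sequence ARF proteins bind with higher affinity, stood before 2 SAUR genes (2.56%), against 4.16% of all genes. CACGTG, the G-box bound by PIF and other bHLH and bZIP factors, stood before 1 SAUR gene (1.28%), against 6.49% of all genes. At least 1 of these letters stood before 10 SAUR genes (12.8%), against 20.0% of all genes, so that matches were no more frequent than in the genome. Promoters of SAUR15, the first SAUR gene studied in Arabidopsis, of SAUR66, which had TGTCTC at 2 places, and of SAUR59, which had CACGTG at 2 places, are given to show these elements, with capitals at the matches.
SAUR15: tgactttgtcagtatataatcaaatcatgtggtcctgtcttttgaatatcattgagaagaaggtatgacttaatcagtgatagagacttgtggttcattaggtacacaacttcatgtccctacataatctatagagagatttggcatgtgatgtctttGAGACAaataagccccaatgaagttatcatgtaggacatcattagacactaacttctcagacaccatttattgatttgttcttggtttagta
SAUR66: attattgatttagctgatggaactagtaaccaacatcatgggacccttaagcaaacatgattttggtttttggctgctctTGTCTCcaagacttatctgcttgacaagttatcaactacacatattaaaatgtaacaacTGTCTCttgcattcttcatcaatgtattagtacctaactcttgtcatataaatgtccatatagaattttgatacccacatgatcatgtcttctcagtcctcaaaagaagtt
SAUR59: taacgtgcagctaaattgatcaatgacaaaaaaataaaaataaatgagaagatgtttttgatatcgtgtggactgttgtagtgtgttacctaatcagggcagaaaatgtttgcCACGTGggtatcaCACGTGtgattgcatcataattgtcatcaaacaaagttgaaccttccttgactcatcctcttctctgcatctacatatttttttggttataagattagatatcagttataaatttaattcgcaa
They lie on the plus strand at chr4:18125807-18126056 (SAUR15), chr1:10320761-10321010 (SAUR66) and chr3:22434614-22434863 (SAUR59). SAUR7 had TGTCTC at 3 places, and SAUR20, SAUR22, SAUR62 and AT1G29510 at 1 place each. SAUR28 and SAUR63 had TGTCGG.

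Nucleosome density over SAUR genes was close to that over other genes. H3 reads per 1000000 reads and per kb of gene body had a median of 9.53 and 9.90 over SAUR genes in h3.3kd replicates 1 and 2, and of 8.92 and 10.4 in WT replicates 1 and 2. Over all genes the medians were 9.68 and 10.5 in h3.3kd and 9.38 and 9.63 in WT. SAUR genes thus lay below all genes in both h3.3kd libraries and in WT replicate 1, and above them in WT replicate 2. Along the gene, mean H3 over SAUR genes was highest in the bins centred 325 and 275 bp after the start in h3.3kd replicates 1 and 2, and 275 and 375 bp after it in WT replicates 1 and 2, and lowest 125 to 225 bp before it. H2A.Z over H3 was highest 175 bp after the start, at 0.82 on the log2 scale, in h3.3kd replicate 1, and 175 and 275 bp after it, at 0.98 and 0.94, in WT replicates 1 and 2. In h3.3kd replicate 2 its highest bin lay 175 bp before the start, at 0.72.

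**Figure D2:**
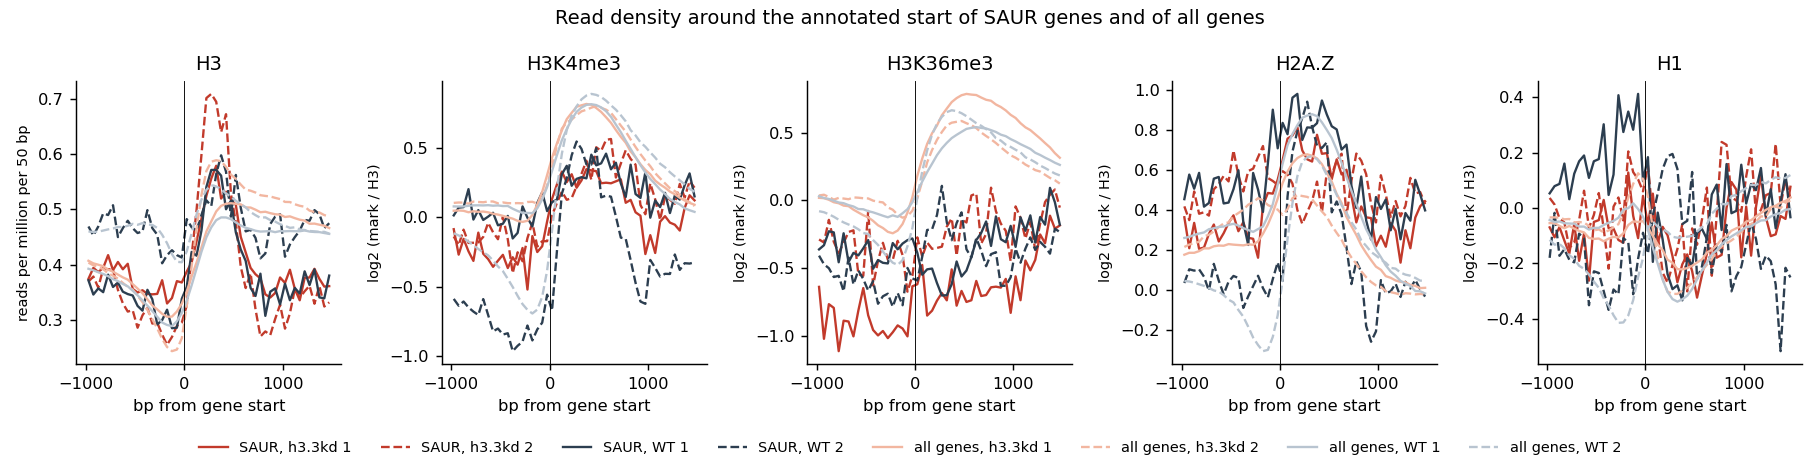
Mean profiles from 1000 bp before to 1500 bp after the annotated start in 50-bp bins, H3 in reads per 1000000 per 50 bp and each mark as log2 over H3, for the 78 SAUR genes and for all genes in each h3.3kd and WT replicate. H3 over SAUR genes peaked 275 to 375 bp after the start in all 4 libraries, and the curve of WT replicate 2 was flatter before the start than the others.

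In WT, H2A.Z was the mark that SAUR genes carried above H3. For each gene body, log2 of mark over H3 was taken from reads per 1000000 with 0.1 added, and 2 mark libraries were compared with 2 H3 libraries by limma, fitted over all genes with Benjamini-Hochberg adjustment. H2A.Z exceeded H3 in 36 of 78 SAUR genes (46.2%) at an adjusted p under 0.05 and fell below it in 0 (0 also at an unadjusted p under 0.05 and by limma-voom). Over all genes H2A.Z was higher in 37.4% and lower in 12.3%, 49.7% in either direction. With no adjustment of p, 48 SAUR genes exceeded H3, against 42.1% of all genes, of which 15.1% fell below it. Other genes with a single exon, 5524 in number, had 52.1% and 3.76%, so that the SAUR share lay between those of the 2 wider sets. The median of log2 H2A.Z over H3 was 0.70 and 0.50 in h3.3kd replicates 1 and 2 and 0.82 and 0.47 in WT replicates 1 and 2, against 0.28 and 0.21 in h3.3kd and 0.36 and 0.25 in WT over all genes. Both WT replicates were above 0 in 70 SAUR genes (89.7%), against 57.4% of all genes. Other genes with a single exon had 75.9%, with medians of 0.59 and 0.40 in h3.3kd and 0.67 and 0.62 in WT. The count of 36 rested on both H2A.Z libraries, as it was 0 without WT H2A.Z replicate 1 and 4 without WT H2A.Z replicate 2, the remaining library being assumed to vary like the others. It was 62, with 1 of them lower, without WT H3 replicate 2, 47 by limma-voom and 23 with no filter on low windows. Leaving out the 4 genes seen at under 80% of their positions kept 36 of 74.

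SAUR40 and SAUR17 had the highest H2A.Z over H3 in WT. SAUR40, a relative of SAUR41, had log2 values of 1.06 and 0.86 in h3.3kd replicates 1 and 2 and of 1.26 and 1.64 in WT replicates 1 and 2 (in WT 1.45 above H3, SE 0.27, limma adjusted p = 0.00258). SAUR17 had 0.51 and 0.54 in h3.3kd and 0.87 and 1.35 in WT (1.11 above H3 in WT, limma adjusted p = 0.0114). SAUR58 and SAUR39 stood at the other end, with 0 not reached in any library. SAUR58 had −0.91 and −1.22 in h3.3kd and −0.68 and −0.47 in WT (limma adjusted p = 0.169 for WT), and SAUR39 had −0.47 and −0.65 in h3.3kd and −0.06 and −0.34 in WT.

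Subfamilies with known roles differed in how many members passed, 4 of 4 in the SAUR41 subfamily, 2 of 6 in SAUR19 to SAUR24, 2 of 8 in SAUR61 to SAUR68 and 2 of 4 in SAUR26 to SAUR29, against the 37.4% of all genes. All 4 genes of the SAUR41 subfamily (SAUR40, SAUR41, SAUR71 and SAUR72), in which SAUR41 promotes cell expansion, had H2A.Z above H3 in WT. SAUR71 had 0.97 and 0.84 in h3.3kd and 1.15 and 1.00 in WT (1.08 above H3 in WT, limma adjusted p = 0.00347), and SAUR41 had 0.65 and 0.26 in h3.3kd and 1.09 and 0.63 in WT (limma adjusted p = 0.0131). In the SAUR19 to SAUR24 cluster the test passed for SAUR19, with 0.85 and 0.73 in h3.3kd and 0.74 and 0.94 in WT (limma adjusted p = 0.0375), and for SAUR23, with 0.91 and 0.45 in h3.3kd and 1.02 and 0.64 in WT (limma adjusted p = 0.0236). The other genes of that cluster had WT values of 0.84 and 0.52 (SAUR20), 0.76 and 0.24 (SAUR21), 0.56 and 0.33 (SAUR22) and 0.48 and 0.14 (SAUR24). They were above 0 in both replicates without passing the test.

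Among the 8 genes SAUR61 to SAUR68, which include SAUR63, a promoter of hypocotyl and stamen filament elongation, SAUR64 and SAUR65 passed. SAUR65 had 0.89 and 1.16 in h3.3kd and 1.12 and 0.80 in WT (limma adjusted p = 0.00828). SAUR63 had 0.71 and 0.20 in h3.3kd and 0.18 and −0.15 in WT, and AT1G29490 had 0.30 and −0.37 in h3.3kd and 0.25 and −0.03 in WT. These were the only genes of the group with a WT replicate below 0. Of SAUR26 to SAUR29, linked to growth at warm temperature, SAUR26 (0.78 above H3 in WT, limma adjusted p = 0.0321) and SAUR29 (0.86, limma adjusted p = 0.0152) passed and SAUR27 and SAUR28 did not. SAUR76, whose protein interacts with ethylene receptors, had 0.92 and 0.44 in h3.3kd and 0.99 and 1.09 in WT (1.04 above H3 in WT, limma adjusted p = 0.00492). Its relative SAUR77 also passed (0.67, limma adjusted p = 0.0245), and SAUR78 did not (0.24, limma adjusted p = 0.496). SAUR36, which promotes leaf senescence, passed (0.58, limma adjusted p = 0.0403), and SAUR32, which acts in the apical hook, did not (0.62, limma adjusted p = 0.0678). SAUR15 had WT replicates far apart, with 0.60 and 0.76 in h3.3kd and 1.20 and 0.24 in WT (limma adjusted p = 0.0967).

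**Figure D3:**
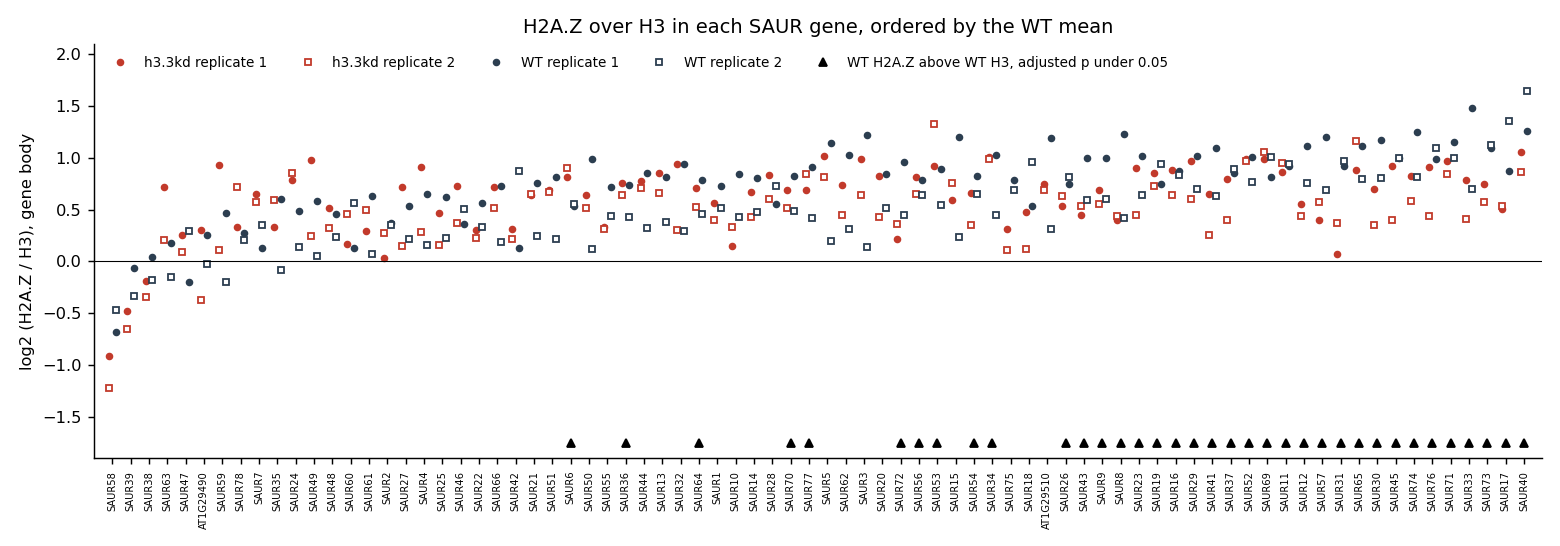
Log2 of H2A.Z over H3 in the body of each SAUR gene (vertical axis), in both h3.3kd and both WT replicates, ordered by the WT mean, with triangles under the 36 genes where WT H2A.Z exceeded WT H3. SAUR58 and SAUR39 lie below 0 in all libraries and SAUR40 is highest in WT.

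H3K4me3 passed the test in few SAUR genes. It exceeded H3 in WT in 6 of 78 genes (7.69%), SAUR6, SAUR14, SAUR16, SAUR49, SAUR50 and SAUR72, against 22.6% of all genes, and fell below H3 in SAUR39 alone (1.28%), against 3.22% of all genes (25.9% of all genes in either direction). At an unadjusted p under 0.05, 10 SAUR genes exceeded H3 and 4 fell below it, against 38.2% and 5.59% of all genes. The median of log2 H3K4me3 over H3 was 0.14 and 0.21 in h3.3kd replicates 1 and 2 and 0.24 and −0.01 in WT replicates 1 and 2, against 0.34 and 0.34 in h3.3kd and 0.26 and 0.45 in WT over all genes. SAUR genes lay below all genes in all 4 libraries, by the least in WT replicate 1. These 7 calls became 0 without WT H3K4me3 replicate 2 and without WT H3 replicate 1, and 2 without WT H3 replicate 2.

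SAUR16 and SAUR14, of a tandem cluster of 4 genes on chromosome 4, had the highest H3K4me3, and SAUR50, also on chromosome 4, was close to them. SAUR16 and SAUR50 are induced by light in cotyledons. SAUR16 had 0.78 and 1.25 in h3.3kd and 1.10 and 1.11 in WT (limma adjusted p = 0.00543), SAUR14 had 0.89 and 1.19 in h3.3kd and 1.06 and 1.07 in WT (limma adjusted p = 0.0202), and SAUR50 had 1.06 and 1.09 in h3.3kd and 1.34 and 0.70 in WT (limma adjusted p = 0.0161). SAUR72 had 1.07 and 1.01 in h3.3kd and 1.19 and 0.86 in WT (limma adjusted p = 0.011). SAUR39 was the reverse, at −0.97 and −2.11 in h3.3kd and −0.34 and −1.69 in WT (1.01 below H3 in WT, a log2 difference of −1.01, SE 0.33, limma adjusted p = 0.0186). The genotypes overlapped in each of these genes.

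H3K36me3 exceeded H3 in no SAUR gene by the test and had a median below H3. It fell below H3 in WT in 6 genes (7.69%), SAUR21, SAUR34, SAUR39, SAUR43, SAUR58 and SAUR70, against 14.5% of all genes, and exceeded it in 0 (0 at an unadjusted p under 0.05 and 0 by limma-voom), against 40.5% of all genes (55.0% in either direction). With no adjustment of p, 17 SAUR genes were below H3, against 19.9% of all genes, of which 42.9% exceeded it. Other genes with a single exon had 10.8% lower and 17.4% higher. The median over SAUR genes was −0.89 and −0.37 in h3.3kd replicates 1 and 2 and −0.59 and −0.37 in WT replicates 1 and 2, while over all genes it was 0.11 and 0.10 in h3.3kd and 0.13 and 0.22 in WT. Both WT replicates were below 0 in 75.6% of SAUR genes, against 40.1% of all genes. Other genes with a single exon had 53.7%, with medians of −0.66 and −0.32 in h3.3kd and −0.49 and −0.08 in WT. SAUR58 was lowest, at −1.72 and −1.22 in h3.3kd and −1.57 and −1.26 in WT (a difference from H3 in WT of −1.42, SE 0.38, limma adjusted p = 0.00701). SAUR72 was the highest in WT, at 0.87 and 0.99 in h3.3kd and 0.51 and 0.48 in WT, without passing the test (limma adjusted p = 0.161). The count of 6 was 2 without WT H3K36me3 replicate 1, 0 without WT H3K36me3 replicate 2, 11 without WT H3 replicate 1 and 18 by limma-voom.

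H1 over H3 had a median near 0 over SAUR genes, −0.02 in WT. By limma 0 SAUR genes passed (0 by limma-voom, and 0 above and 5 below H3 at an unadjusted p under 0.05), against 0.0% of all genes, of which 2.6% exceeded and 2.06% fell below H3 at that unadjusted p. The lowest, with at least 50 reads on average, were SAUR49 and SAUR78. SAUR49 had −0.69 and −0.72 in h3.3kd and −1.28 and −0.83 in WT, and SAUR78 had −1.04 and −0.94 in h3.3kd and −1.29 and −0.68 in WT. Both also had H3K4me3 above 0 in all 4 libraries. Across the 78 genes, the WT means of H1 and H3K4me3 had Pearson r = −0.47 (Spearman rho = −0.45), H3K4me3 and H3K36me3 r = 0.62 (rho = 0.53), and H2A.Z and H3K36me3 r = 0.03 (rho = −0.02). Over all genes r was −0.34, 0.81 and −0.39 for the same pairs (rho = −0.40, 0.82 and −0.47). These marks share the H3 libraries of their denominator, and genes are not independent replicates.

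**Figure D4:**
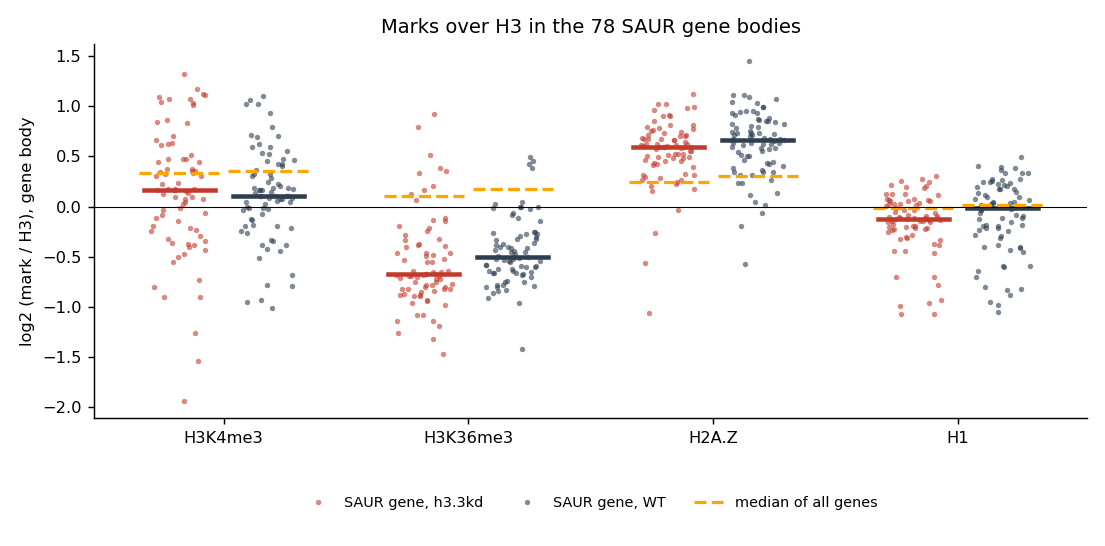
Log2 of mark over H3 in the 78 SAUR gene bodies (vertical axis), the mean of 2 replicates per gene in h3.3kd and in WT, with solid lines at the SAUR median and dashed lines at the median of all genes. H2A.Z lies above the all-gene median and H3K36me3 below it in both genotypes.

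The other genes listed for the auxin pathway differed among themselves in these marks. ARF and Aux/IAA genes were listed by gene symbol or product text, so that a gene outside the pathway with such a symbol may be among them. GH3 genes, listed by product text and of which some encode enzymes that join auxin to amino acids, had H2A.Z above H3 in WT in 18 of 20 genes. It was below H3 in 0 of them (0 at an unadjusted p under 0.05), with a median of 0.79. Aux/IAA genes had it above H3 in 11 of 29 genes and below it in 1, with a median of 0.39. ARF genes had it above H3 in 0 of 25 genes (0 at an unadjusted p under 0.05) and below it in 14, with a median of −0.66. Of the TIR1/AFB receptor genes, 4 of 6 were below H3 and 0 above it (0 at an unadjusted p under 0.05). Over all genes these shares were 37.4% above and 12.3% below. H3K36me3 was higher than H3 in 6 of 6 TIR1/AFB genes, 6 of 9 PP2C.D genes, 13 of 25 ARF genes and 5 of 29 Aux/IAA genes, against 40.5% of all genes. It was lower in 8 of 25 ARF genes, 1 of 29 Aux/IAA genes and 0 genes of TIR1/AFB and PP2C.D, against 14.5% of all genes. In GH3 genes, as in SAUR genes, more members were below H3 in H3K36me3 (7 of 20) than above it (2 of 20).

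The comparison of h3.3kd with WT asks whether these marks differed in SAUR genes relative to the rest of each library. Values are scaled to the reads of their own library and marks are divided by H3. A change of amount shared by the whole genome would therefore not show. No SAUR gene body passed the test for any antibody. In each of the 5 comparisons limma called 0 of 78 genes and limma-voom 0. Over all genes limma called 0.0% for H3, 0.0331% for H3K4me3, 0.059% for H3K36me3, 0.0% for H2A.Z and 0.0% for H1, so that calls were rare everywhere. At an unadjusted p under 0.05, SAUR genes that were higher and lower numbered 0 and 1 for H3, 9 and 0 for H3K4me3, 2 and 1 for H3K36me3, 1 and 3 for H2A.Z and 0 and 3 for H1. The same shares over all genes were 2.37% and 0.512% for H3, 2.7% and 2.2% for H3K4me3, 1.31% and 1.79% for H3K36me3, 2.02% and 5.68% for H2A.Z and 0.519% and 1.65% for H1. The median SE of a SAUR gene was 0.30 for H3, 0.24 for H3K4me3, 0.39 for H3K36me3, 0.23 for H2A.Z and 0.19 for H1 on the log2 scale. Without WT replicate 1, with the remaining WT replicate assumed to vary like the h3.3kd replicates, calls among SAUR genes were 6 for H3, 10 for H3K4me3, 4 for H2A.Z and 1 for H1. Without WT replicate 2 they were 2 for H3K4me3 and 1 for H2A.Z. With replicate 1 of H3 as the only denominator they were 3 for H1.

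H2A.Z differed little between genotypes over the set, with a median difference of −0.06 for SAUR genes and for all genes, and of −0.13 and −0.07 within replicates 1 and 2. Both h3.3kd replicates were below both WT replicates in 23 genes (29.5%, against 26.0% of all genes) and above them in 6 (7.69%, against 13.2%). SAUR31 had the largest fall in value, with 0.07 and 0.37 in h3.3kd and 0.93 and 0.97 in WT. Its difference was −0.73 (SE 0.21, unadjusted p = 0.0043, limma adjusted p = 0.526), and its H3 level, as log2 reads per 1000000 over the body, was 3.27 and 3.05 in h3.3kd and 2.89 and 2.61 in WT. H3, the denominator, thus moved the other way. SAUR17 differed by −0.59 (SE 0.24, limma adjusted p = 0.625), from H2A.Z values given above, and its H3 level was 2.68 and 2.74 in h3.3kd and 2.60 and 1.97 in WT. SAUR75 had H2A.Z of 0.31 and 0.11 in h3.3kd and 0.79 and 0.69 in WT (−0.53, SE 0.19, limma adjusted p = 0.598), on the 72.2% of its positions that could be seen. SAUR24 and SAUR63 had the largest rises in value. SAUR24 had H2A.Z of 0.79 and 0.85 in h3.3kd and 0.48 and 0.14 in WT (0.51, SE 0.21, limma adjusted p = 0.625), with H3 of 2.30 and 2.16 in h3.3kd and 2.66 and 2.93 in WT. Without the H3 denominator its difference was −0.057.

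The SAUR41 subfamily had lower H2A.Z in h3.3kd in all 4 genes, with differences of −0.49 to −0.17 and a median of −0.41. None of these passed the test. Lower values were common, as the difference was above 0 in 32 of 78 SAUR genes and 11132 of 27160 genes tested. Among other genes with a single exon it was above 0 in 1612 of 5368. H3, the denominator, was higher in h3.3kd in all 4 genes of the subfamily, by 0.02 to 0.29 with a median of 0.20. Its part in the H2A.Z difference was not tested. Medians of H2A.Z over the 4 genes were 0.68 in h3.3kd and 0.97 in WT. The SAUR19 to SAUR24 genes had a median difference of −0.05 (−0.18 to 0.51). Clustered SAUR genes had H2A.Z medians of 0.63 in h3.3kd and 0.64 in WT and a median difference of −0.01. The SAUR genes outside clusters had 0.52 in h3.3kd, 0.72 in WT and a difference of −0.23. Other genes with a single exon had a median H2A.Z difference of −0.15. The median difference of H3, the denominator, was −0.07 in clustered SAUR genes and 0.09 in those outside clusters. The contrast between clustered SAUR genes and those outside clusters was not tested, nor was the part of H3 in it.

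H3K4me3 had a median difference of 0.05 over SAUR genes, against −0.04 over all genes, with −0.04 and 0.14 within replicates 1 and 2. Both h3.3kd replicates were above both WT replicates in 19 SAUR genes (24.4%, against 14.6% of all genes) and below them in 11 (14.1%, against 16.1%). SAUR53 and SAUR59 had the largest rises. SAUR53 had 0.92 and 1.73 in h3.3kd and 0.65 and 0.74 in WT (0.63, SE 0.21, limma adjusted p = 0.536). Its H3 level was 2.85 and 2.77 in h3.3kd and 3.27 and 3.67 in WT, a difference of −0.66 (SE 0.28, limma adjusted p = 0.997), the largest fall of H3 in the family, and without the H3 denominator the H3K4me3 difference was −0.027. SAUR59 had H3K4me3 of 1.42 and 0.92 in h3.3kd and 0.74 and 0.37 in WT (0.62, SE 0.19, limma adjusted p = 0.49), and H3K36me3 of 0.68 and 0.36 in h3.3kd and −0.14 and 0.00 in WT (0.59, SE 0.22). Both marks of SAUR59 were higher in both h3.3kd replicates. The largest falls in value were in genes of low H3K4me3. SAUR58 had −1.65 and −2.23 in h3.3kd and −0.85 and −1.02 in WT (−1.01, SE 0.63), and SAUR75 had −1.01 and −1.51 in h3.3kd and −0.38 and −0.99 in WT (−0.58).

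H3K36me3 had a median difference of −0.10 over SAUR genes, against −0.07 over all genes, with −0.26 and 0.09 within replicates 1 and 2. Its sign thus depended on the replicate. The genotypes did not overlap in 7 genes with higher values in h3.3kd (8.97%, against 8.57% of all genes) and in 10 with lower values (12.8%, against 16.6%). SAUR51 had 0.14 and 0.53 in h3.3kd and −0.28 and −0.36 in WT (0.66, SE 0.24, limma adjusted p = 0.966). SAUR38 had −0.26 and −0.30 in h3.3kd and 0.57 and 0.21 in WT (−0.67, SE 0.23, limma adjusted p = 0.782). SAUR57 had −1.57 and −0.70 in h3.3kd and −0.36 and −0.30 in WT (−0.81, SE 0.45).

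H1 had a median difference of −0.09 over SAUR genes, against −0.04 over all genes, with −0.01 and −0.14 within replicates 1 and 2. Both h3.3kd replicates were above both WT replicates in 10 genes (12.8%, against 8.66% of all genes) and below them in 20 (25.6%, against 18.1%). The largest falls were in neighbours of the cluster on chromosome 3. SAUR73 had −0.31 and −0.32 in h3.3kd and 0.10 and 0.39 in WT (−0.56, SE 0.17), and SAUR26 had −0.29 and 0.13 in h3.3kd and 0.38 and 0.30 in WT (−0.42, SE 0.18). The smallest limma adjusted p for H1 over SAUR gene bodies was 0.99988. H3, the denominator, was higher by 0.36 in h3.3kd in SAUR73, and its part in the H1 difference was not tested. SAUR77 had −0.42 and −0.03 in h3.3kd and −0.62 and −0.67 in WT (0.42), and SAUR71 had −0.31 and −0.07 in h3.3kd and −0.74 and −0.44 in WT (0.40). H3 itself had a median difference of 0.02 over SAUR genes, against 0.09 over all genes, with 0.03 and −0.01 within replicates 1 and 2. The genotypes did not overlap for H3 in 15 genes that were higher in h3.3kd (19.2%, against 25.5% of all genes) and in 10 that were lower (12.8%, against 5.64%).

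In the 500 bp upstream and downstream of SAUR genes, limma called 0 of 78 genes for each antibody and limma-voom 0. Upstream, limma called 0.0664% of all genes for H3K4me3, 0.0185% for H3K36me3 and 0.0% for H3, H2A.Z and H1. Downstream it called 0.0517% for H3K4me3, 0.0037% for H3K36me3 and 0.0% for the others. At an unadjusted p under 0.05, higher and lower SAUR genes upstream numbered 0 and 2 for H3 (all genes 0.328% and 1.26%), 1 and 0 for H3K4me3 (5.45% and 0.0516%), 2 and 0 for H3K36me3 (2.31% and 0.458%), 2 and 0 for H2A.Z (4.91% and 0.251%) and 0 and 2 for H1 (1.94% and 0.273%). Downstream they numbered 0 and 2 for H3 (0.944% and 1.67%), 3 and 0 for H3K4me3 (4.41% and 0.255%), 0 and 1 for H3K36me3 (1.72% and 1.68%), 5 and 0 for H2A.Z (5.76% and 0.527%) and 2 and 1 for H1 (1.57% and 0.963%). Flanks of SAUR genes often belong to a neighbour, since 18 upstream and 33 downstream flanks overlap another gene. Gene bodies do so less often, as 11 overlap another gene and 2 of these another SAUR gene. Without WT replicate 1, whose removal leaves WT replicate 2 with its flat H3 library, calls in SAUR genes were 4 for H3, 16 for H3K4me3 and 11 for H2A.Z upstream, and 7 for H3, 15 for H3K4me3, 13 for H2A.Z and 2 for H1 downstream. With replicate 1 of H3 as the only denominator, they were 2 for H3K4me3, 14 for H3K36me3 and 5 for H1 upstream, and 5 for H3K4me3, 9 for H3K36me3, 2 for H2A.Z and 2 for H1 downstream.

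Differences taken within replicate numbers went in opposite directions in the flanks. Upstream H3 had a median difference of 0.13 within replicate 1 and of −0.64 within replicate 2. Upstream H3K4me3 over H3 had −0.24 and 0.66 within replicates 1 and 2, and H2A.Z over H3 had −0.16 and 0.65. Downstream, H3 had 0.03 and −0.59, H3K4me3 over H3 had −0.27 and 0.58, H3K36me3 over H3 had −0.55 and 0.26 and H2A.Z over H3 had −0.08 and 0.54. Upstream, all genes behaved likewise, with H3 medians of 0.07 and −0.73 within replicates 1 and 2. Within replicate numbers, the flank medians of SAUR genes therefore share no direction, although single genes do. The numbers are not known to pair the libraries, and signs may differ in another pairing. Median upstream H3 of SAUR genes was 1.89 and 1.51 in h3.3kd replicates 1 and 2 and 1.67 and 2.15 in WT replicates 1 and 2.

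SAUR50 and SAUR49, of the same cluster on chromosome 4, were among the genes with an unadjusted p under 0.05 upstream, and H3, the denominator, is given beside their marks. Upstream H3 of SAUR50, as log2 reads per 1000000, was 1.11 and 1.29 in h3.3kd and 1.87 and 2.89 in WT (−1.17, SE 0.43, limma adjusted p = 0.888). Upstream H2A.Z over H3 of SAUR50 was 0.65 and 0.64 in h3.3kd and 0.11 and −0.72 in WT (0.95, SE 0.47, limma adjusted p = 0.87). In SAUR49, upstream H3K4me3 over H3 was 0.62 and 0.34 in h3.3kd and −0.15 and −1.36 in WT (1.23, SE 0.49, limma adjusted p = 0.638), with H3 of 0.72 and 0.35 in h3.3kd and 0.98 and 1.97 in WT. Both WT replicates lay on the same side of both h3.3kd replicates in these values, and the part of H3 in them was not tested. In each, WT replicate 2 was the farthest from the other libraries. Both genes were chosen after their values were seen. The promoters printed above gave no call: SAUR15 had upstream H2A.Z over H3 of 0.52 and 0.72 in h3.3kd and 0.31 and 0.39 in WT (0.27, SE 0.41, limma adjusted p = 0.904). SAUR66 had 0.03 and 0.68 in h3.3kd and 0.35 and 0.15 in WT, and SAUR59 had 0.47 and 0.90 in h3.3kd and 0.84 and 0.00 in WT, with overlap between the genotypes in both.

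**Figure D5:**
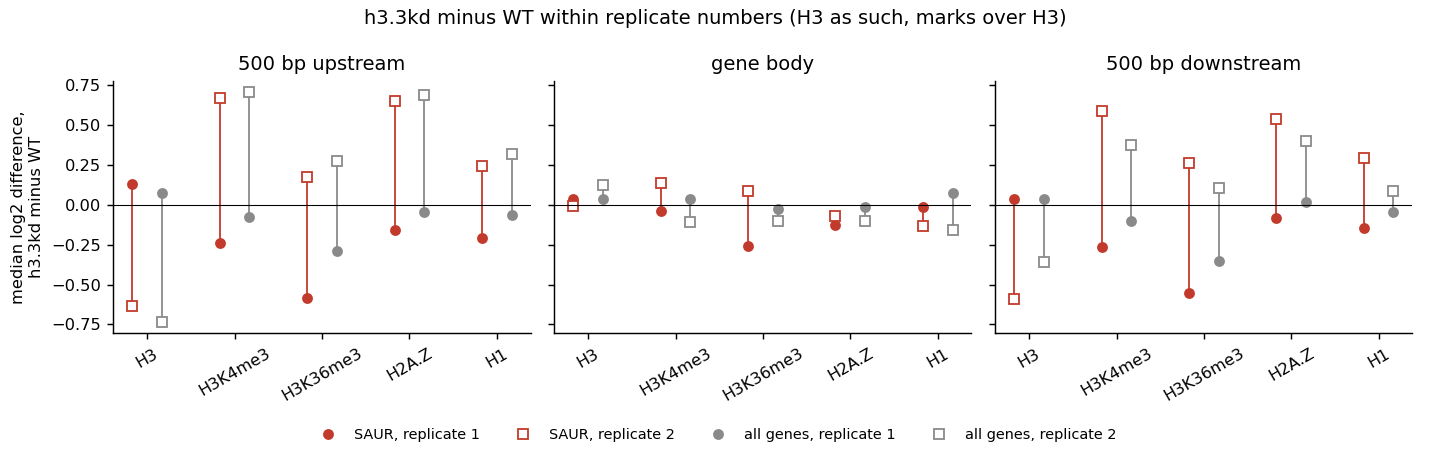
Median log2 difference of h3.3kd minus WT (vertical axis) within replicate 1 and within replicate 2 for SAUR genes and for all genes, over the 500 bp upstream, the gene body and the 500 bp downstream, with H3 as such and marks over H3. In the flanks of SAUR genes replicates 1 and 2 lie on opposite sides of 0 for every antibody, and body medians lie between −0.26 and 0.14.

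The 91 other genes listed for the auxin pathway had few calls between h3.3kd and WT as well. Over the gene body limma called 0 for each antibody, and at an unadjusted p under 0.05 the higher and lower genes numbered 1 and 1 for H3, 2 and 1 for H3K4me3, 1 and 0 for H3K36me3, 4 and 5 for H2A.Z and 0 and 2 for H1. The shares of all genes were those given above for SAUR genes, with 2.02% higher and 5.68% lower for H2A.Z. In the flanks 1 gene was called, IAA12, an Aux/IAA repressor of embryo patterning, for H3K4me3 over H3 downstream. Over all genes 0.0517% were called there. IAA12 had 1.26 and 1.15 in h3.3kd and 0.22 and −0.53 in WT (1.36, limma adjusted p = 0.0273), and was chosen after its value was seen. The part of H3 was not tested. Upstream, higher and lower genes at that unadjusted p numbered 0 and 3 for H3 and 2 and 0 for H3K4me3. They numbered 3 and 1 for H3K36me3, 8 and 0 for H2A.Z and 2 and 0 for H1. Downstream they numbered 0 and 5 for H3, 4 and 0 for H3K4me3 and 3 and 0 for H3K36me3. For H2A.Z they were 10 and 0, and 1 and 0 for H1. Shares of all genes are given above with the SAUR flanks.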

How the data were processed

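ChIP-seq libraries of 10-day h3.3kd and WT seedlings were made with 5 antibodies in 2 replicates. The authors aligned reads with Bowtie to TAIR10 (at most 2 mismatches), discarded those with more than 1 place and duplicates by coordinate, and deposited a list of read positions per library, with a line for each read and without normalization. In 16 libraries the lists carry strands. They carry no strands and no organelle reads in the other 4 (H3K4me3 and H2A.Z, replicate 2), for a reason not given in the sources used here. Reads of 50 bp were counted by their centre in gene bodies and 500-bp flanks of TAIR10.1 (RefSeq), whose nuclear chromosomes contain all listed positions, and scaled per 1000000 nuclear reads, with 8688846 to 68090065 reads per library. Replicate spread is given in place of counting intervals, which would cover counting error only.

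Log2 of mark over H3, matched by genotype and replicate number, with a pseudocount of 0.1 reads per 1000000, was tested where a window averaged 10 reads or more. The test was limma 3.58.1 (lmFit, then eBayes with trend) in R 4.3.3, with Benjamini-Hochberg adjustment over all genes and a threshold of 0.05. All 78 SAUR genes passed this minimum in every window. Changes of windows with few reads are understated on this scale. H3 itself was tested as log2 reads per 1000000, and in WT each mark was compared with H3. The smallest p of an exact two-sided permutation test of 2 against 2 libraries is 0.333. The fits were tested on simulated data. Copies were found with bwa 0.7.19, as places where a stretch of 50 bp occurs again exactly or with up to 2 mismatches. Other steps used matplotlib 3.10.9, scipy 1.17.1, pandas 2.3.3, numpy 2.4.6 and Python 3.11.15.

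Named genes are those of the subfamilies described, the 2 highest and 2 lowest per mark in WT and, where no gene was called, the 2 largest rises and falls without overlap between genotypes, with a mean of at least 50 reads, and genes called against H3 in WT. SAUR75 (H2A.Z) and the genes stated as such lie outside this rule and were picked with their values known. The SAUR genes, the lists and the tests were chosen with earlier results of these data known. ARF genes were those with a symbol or synonym of ARF and digits, or with auxin response factor in the product text. Aux/IAA genes were those of the rest with a symbol or synonym of IAA and digits, or with a matching product text. AT1G29490 and AT1G29510 share the symbol SAUR68 in the annotation and are given by locus. The alternatives were a pseudocount of 0.5, no filter, all listed reads as total, stranded reads moved by 75 bp, a correction for duplicate removal, limma-voom, no H3, pooled H3 or H3 replicate 1 as denominator, a replicate block, genes under 80% unique positions left out, and leaving out each library.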

Additional observations from a re-analysis of the deposited data

How the results depend on the processing

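Calls among SAUR genes depended on single libraries. Leaving out each replicate in turn, calls between h3.3kd and WT ranged from 0 to 6 for H3, 0 to 10 for H3K4me3, 0 to 0 for H3K36me3, 0 to 4 for H2A.Z and 0 to 1 for H1 over the body, from 0 to 4, 0 to 16, 0 to 0, 0 to 11 and 0 to 0 upstream, and from 0 to 7, 0 to 15, 0 to 0, 0 to 13 and 0 to 2 downstream. For WT marks against H3 they ranged from 0 to 62 for H2A.Z, 0 to 7 for H3K4me3, 0 to 11 for H3K36me3 and 0 to 1 for H1. With pooled H3 of a genotype as denominator, 3 genes were called for H3K4me3 and 2 for H2A.Z upstream and 4 for H3K4me3 downstream. With H3 replicate 1 as denominator, calls were 3 for H1 over the body, 2 for H3K4me3, 14 for H3K36me3 and 5 for H1 upstream, and 5 for H3K4me3, 9 for H3K36me3, 2 for H2A.Z and 2 for H1 downstream. In WT, limma-voom called 18 genes for H3K36me3 and the fit without a filter 23 for H2A.Z. Without the H3 denominator the difference of SAUR24 in H2A.Z was −0.057 and that of SAUR53 in H3K4me3 was −0.027, both reversed. Of 248 alternative counts of SAUR genes, 209 stayed within 1.5 times the count given, or at 0, and 39 did not, and the cause was not tested. Medians over SAUR genes kept within the replicate spread in 236 of 253 alternatives.

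A replicate block left 0 SAUR genes called between h3.3kd and WT for every antibody and window. Against H3 in WT it gave 19 for H3K4me3, 24 for H3K36me3 and 7 for H1, and 51 for H2A.Z. The numbers are not known to pair the libraries: deviations of same-numbered libraries from their group means had r from −0.01 to 0.32 over the body, −0.25 to 0.14 upstream and −0.27 to 0.04 downstream. Crossed pairing, chosen after seeing the data, called 0 SAUR genes for H3 in both flanks and for H3K36me3 downstream. With 2 libraries per group and 19 to 535 reads over a SAUR body for H3K36me3, depth limits that mark, whose median SE was 0.39 on the log2 scale.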
